A study of Sparus aurata with 9 samples.

Results

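In white muscle of gilthead seabream (Sparus aurata), 3 gene models of a sodium channel, described as type 4 subunit alpha B-like, were followed across 3 flow regimes. They are Sa_16736.1.1, Sa_27160.1.1 and Sa_26952.1.1, the last one described as isoform X2. They were taken from a fixed list of identifiers in tables of 61849 gene models. At least 1 fish had a count for 14465 of these. The list was drawn up for differences from the controls in these same counts, so the differences of the 3 models are given as a description and were not tested.

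The muscle action potential rests on a voltage-gated sodium channel whose pore is a single large protein, the type 4 alpha subunit, encoded by scn4a in mammals. Teleost fish carry a pair of such genes, and their proteins are named type 4 subunit alpha A and alpha B. The alpha subunit opens when the fibre membrane is depolarized at the endplate and carries the sodium inflow that spreads the action potential over the sarcolemma and into the t-tubules. Smaller beta subunits bind to it and adjust its gating and its place in the membrane.

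The fish came from 1 commercial farm and were kept for 8 months at minimal flow (the controls), at a flow that induced swimming at 1 body length per second (1 BL/s), or at 2 BL/s. RNA of 3 fish per group was sequenced, each from a separate animal of similar size and normal shape. There was 1 tank per group, so that flow regime and tank cannot be told apart. No genetic change was made and no drug was part of the flow regimes. By the study's methods, the sampled fish of all groups were killed by an MS222 overdose. Total counts per fish lay between 3660245 and 5267310.

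Markers of fast white muscle (fast myosin heavy chains, parvalbumin, muscle creatine kinase and others, 89 gene models) took 24.3% to 28.9% of the counts of a fish. Markers of slow and red muscle (20 gene models) summed to 5 to 44 counts in 8 fish and to 548 in fish 2 at 2 BL/s, and those of heart (55 gene models) to 32 to 72 and 461. Markers of nerve and glia (74 gene models) took 0.0295% to 0.0442% of the counts. Fish 3 at 1 BL/s stood apart in other ways. It had 7780 gene models with a count, against 8721 to 9718 in the other fish. Its counts of long transcripts were low, as described below. In bulk muscle, fewer fibres that express a gene and less RNA per fibre cannot be told apart.

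The tables hold 16 gene models for type 4 subunit alpha B of the sodium channel, of which 8 had a count in any fish and 5 had at least 10 counts over the 9 fish. These 5 are the 3 listed models, Sa_27161.1.1 and Sa_9398.9.1. Only 1 gene model was described as alpha A, Sa_30555.2.1, and it had 711 counts over the 9 fish. Alpha subunits of other types were nearly absent, with 1 count in all for a type 8 model. The description therefore covers several models at once, and models that share reads with a close copy are uncertain. The identifiers matched 0 entries of the RefSeq gene table, so that no position, length or sequence is given. Counts of different models are not compared as levels, since their lengths were not used. Where models are ranked or given as shares below, this is by counts only.

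Sa_16736.1.1 had the most counts of the 3 listed models, with 60, 84 and 113 under minimal flow, then 63, 39 and 15 among the 1 BL/s fish, and 63, 82 and 54 among the 2 BL/s fish. After normalization by TMM over the 9 fish these were 61.0, 92.4 and 100.1 under minimal flow, then 54.8, 39.6 and 19.4 among the 1 BL/s fish, and 59.5, 81.7 and 50.7 among the 2 BL/s fish. In normalized counts every fish at 1 BL/s was below every control, and the fish at 2 BL/s overlapped with both other groups. The closest values, 54.8 in fish 1 at 1 BL/s and 61.0 in control fish 1, stem from 63 and 60 raw counts. These are in the opposite order, so nothing is read from that margin. The group means were 84.5 ± 20.7, 37.9 ± 17.8 and 64.0 ± 16.0 normalized counts (SD, n = 3 fish each). The 1 BL/s fish were at 0.454 of the control level, a log2 fold change of −1.14 with a standard error of 0.39. The 2 BL/s fish were at 0.759 of it (−0.40 on the log2 scale, with a standard error of 0.28), a difference close to the spread between fish. Without fish 3 at 1 BL/s the difference at 1 BL/s was −0.84 on the log2 scale.

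Sa_27160.1.1 had 37, 33 and 29 counts under minimal flow, then 33, 20 and 1 among the 1 BL/s fish, and 16, 14 and 12 among the 2 BL/s fish. Here the fish at 2 BL/s were all below the controls and close to each other, while those at 1 BL/s ranged from the level of the controls down to a single count in fish 3. In normalized counts the controls were at 37.6, 36.3 and 25.7, the fish at 1 BL/s at 28.7, 20.3 and 1.29, and the fish at 2 BL/s at 15.1, 14.0 and 11.3. The means were 33.2 ± 6.54, 16.8 ± 14.1 and 13.4 ± 1.97 (SD, n = 3 fish each). The 2 BL/s fish were at 0.41 of the control level, with a log2 fold change of −1.29 and a standard error of 0.33. That value lay between −1.45 and −1.18 when any one of the 6 fish was left out. At 1 BL/s the log2 fold change was −0.93 with a standard error of 0.64, and without fish 3 it was −0.43.

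Sa_26952.1.1 was the scarcest of the 3, with 12, 7 and 10 counts under minimal flow, then 2, 0 and 0 among the 1 BL/s fish, and 1, 9 and 8 among the 2 BL/s fish. The fish at 1 BL/s were all below the controls and below fish 2 and 3 at 2 BL/s, whereas fish 1 at 2 BL/s was as low as they were. The model did not reach the count needed for edgeR's filter in any comparison, so its ratios rest on summed counts. Over the group, 29 counts in the controls stood against 2 at 1 BL/s, a normalized ratio of 0.0715 with an exact 95% counting interval of 0.00826 to 0.282. The 2 BL/s fish had 18, a ratio of 0.602 (0.315 to 1.12). The 0 counts of fish 2 at 1 BL/s allow a level of up to 0.705 CPM (3 counts), and those of fish 3 up to 0.716 CPM. These intervals and limits cover counting error only, not the spread between fish. A second model of the same name and isoform, Sa_26952.1.2, had 3, 0 and 1 counts under minimal flow, 1, 0 and 0 among the 1 BL/s fish and none among the 2 BL/s fish, too few to compare.

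**Figure D1:**
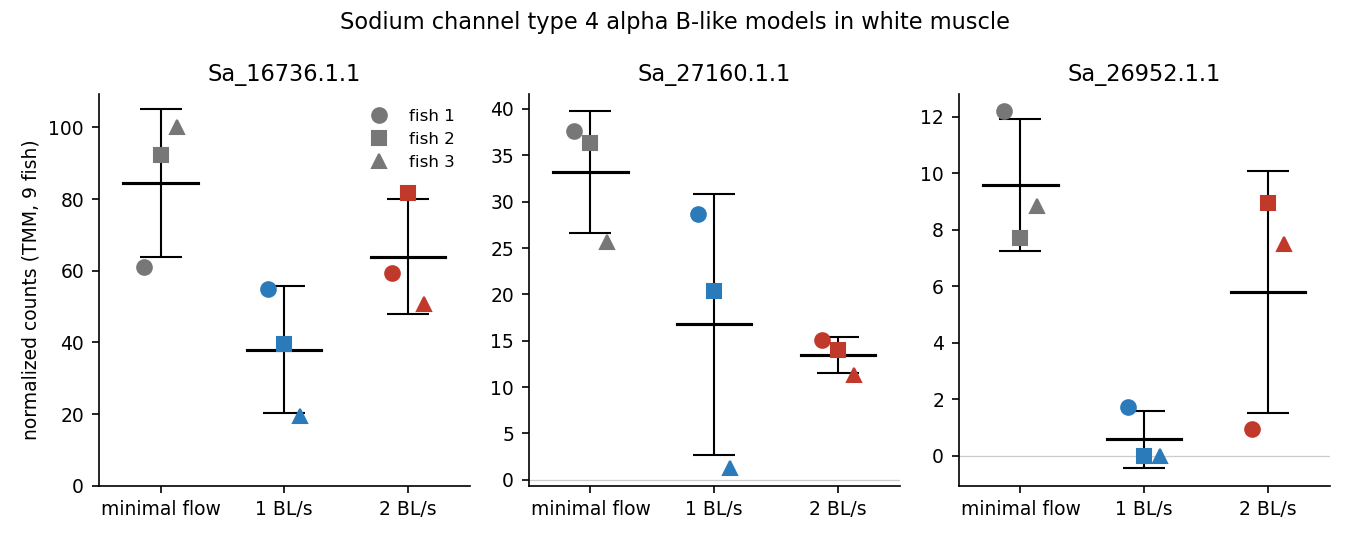
Normalized counts (y axis, TMM over the 9 fish) of the 3 listed sodium channel models in each fish, by flow regime (x axis), with the group mean (thick line) and SD (bars, n = 3 fish). The group means of Sa_16736.1.1 and Sa_26952.1.1 were lowest at 1 BL/s, with fish that overlapped with those at 2 BL/s. Sa_27160.1.1 lay between 11.3 and 15.1 in all 3 fish at 2 BL/s, and its lowest value, 1.29, was in fish 3 at 1 BL/s.

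The 3 models thus did not all separate from the controls in the same group, and differences between the models were not tested. In normalized counts, 2 of the 3 (Sa_16736.1.1 and Sa_26952.1.1) had every fish at 1 BL/s below every control. For Sa_16736.1.1 the raw counts overlapped. At 2 BL/s 1 of the 3 (Sa_27160.1.1) had every fish below every control. Among all gene models tested, which leave out Sa_26952.1.1 for its low counts, 5.1% had every fish at 1 BL/s below every control. At 2 BL/s 5.24% had every fish below. Because the list was drawn up on the same comparisons, nothing is read from these counts. Between the flows, Sa_16736.1.1 was 1.67 times as high at 2 as at 1 BL/s (0.74 on the log2 scale, with a standard error of 0.38) and Sa_27160.1.1 was at 0.781 (−0.36, standard error 0.69), and for both the fish of the groups overlapped. Of all gene models tested between the flows, 5.48% had every fish lower at 2 BL/s and 5.35% every fish higher. For Sa_26952.1.1 the 18 counts at 2 BL/s against 2 at 1 BL/s gave a ratio of 8.44 with a counting interval of 2.02 to 75.0, again with fish of the groups overlapping. Without fish 1 at 1 BL/s the difference of Sa_27160.1.1 between the flows was 0.24 on the log2 scale, the opposite direction. The comparisons with the controls share the same 3 control fish.

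Fish 3 at 1 BL/s had the fewest counts for Sa_16736.1.1 and Sa_27160.1.1, and its long transcripts were low in general. Alpha subunits are large proteins made from long transcripts. For 61 gene models of very large proteins (titin, ryanodine receptor, obscurin, nesprin and others, chosen by description and not by measured length), the median log2 deviation from the mean of the 9 fish was −0.82 in this fish and 0.48 for 127 gene models of small proteins. The difference of −1.30 compares with −0.02 to 0.46 in the other 8 fish.

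Sa_27160.1.1 and Sa_16736.1.1 sat below the median of the long transcripts in that fish. Sa_27160.1.1 deviated by −2.54, and 6 of the 61 long models were lower. That value rests on 1 count with a prior count of 2, so its place among the long models is uncertain. Sa_16736.1.1 deviated by −1.46 with 14 of 61 lower. Sa_26952.1.1 had 0 counts there and in fish 2, so that its deviation of −1.52 in both is the floor set by the prior count of 2 and has no place among the long transcripts. Of the models outside the list, Sa_27161.1.1 deviated by −2.72 and the alpha A-like Sa_30555.2.1 by −2.02, whereas Sa_9398.9.1 deviated by −0.10 only.

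Outside that fish the long transcripts of the 1 BL/s group were near their mean, at −0.01 in fish 1 and 0.13 in fish 2. In these fish Sa_16736.1.1 deviated by −0.05 and −0.50 and Sa_27160.1.1 by 0.68 and 0.22, against a mean that includes the low fish. In fish 2, Sa_16736.1.1 (39.6 normalized counts), Sa_27160.1.1 (20.3) and Sa_26952.1.1 (0 counts) were each below all 3 controls. In fish 1, Sa_27160.1.1 (28.7) lay among the controls, and Sa_16736.1.1 (54.8) and Sa_26952.1.1 (1.74) were below them. Because the list was drawn up on these same counts, nothing is read from these positions. With the summed counts of the long transcripts as library size, the log2 ratio at 1 BL/s against the controls was −0.66 for Sa_16736.1.1, −0.40 for Sa_27160.1.1 and −3.39 for Sa_26952.1.1. The values for the 2 BL/s fish were −0.19, −1.06 and −0.51. Scaling to the median of the long transcripts in each fish, chosen after the data had been seen, gave −0.76, −0.50 and −3.49 for the 1 BL/s fish and −0.33, −1.20 and −0.65 for the 2 BL/s fish. On both scales these are log2 ratios of summed counts, a different estimate from the edgeR fold changes given above. With TMM the ratios of summed counts at 1 BL/s, not on the log2 scale, were 0.472 for Sa_16736.1.1 and 0.565 for Sa_27160.1.1. At 2 BL/s they were 0.751 and 0.411. On the median scale Sa_16736.1.1 stood at 57.0, 73.8 and 91.0 under minimal flow and at 55.4, 36.1 and 34.2 among the 1 BL/s fish. The groups did not overlap, but the values of 57.0 and 55.4 stem from 60 and 63 raw counts, in the opposite order. Nothing is read from so small a margin. The part that the low long transcripts play in these values was not tested.

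**Figure D2:**
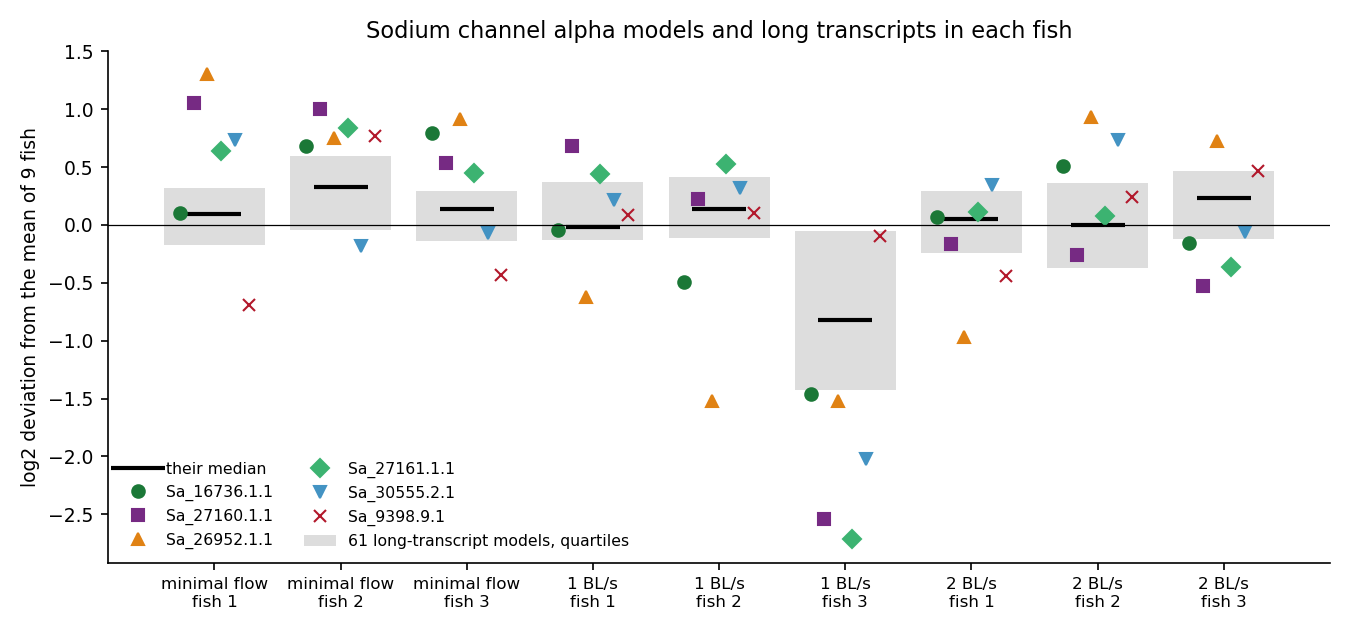
Log2 deviation of each sodium channel alpha model from its mean over the 9 fish (y axis, prior count of 2), fish by fish (x axis), with the quartiles (grey boxes) and median (black lines) of 61 long-transcript models. In fish 3 at 1 BL/s the median is −0.82 and Sa_27160.1.1 and Sa_27161.1.1 lie at −2.54 and −2.72, while Sa_9398.9.1 lies at −0.10.

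Of the other alpha models, Sa_27161.1.1, which carries the same description, stood just outside the list. It had 109, 116 and 110 counts under minimal flow, then 111, 101 and 7 among the 1 BL/s fish, and 81, 75 and 58 among the 2 BL/s fish. The fish at 2 BL/s were all below the controls, and at 1 BL/s only fish 3 was far below them. In the 2 BL/s fish it fell, from 114 ± 15.6 normalized counts under minimal flow to 70.2 ± 12.5 (SD over 3 fish each, scaled over these 6 fish), a log2 fold change of −0.70 with a standard error of 0.24. By edgeR's quasi-likelihood test the unadjusted p was 0.0156 and the Benjamini-Hochberg adjusted p was 0.996. This call did not hold when fish 3 at 2 BL/s was left out (−0.56) or with all 9 fish in one fit (−0.71). At 1 BL/s its log2 fold change was −0.67 with a standard error of 0.62, and −0.17 without fish 3.

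Sa_27161.1.1 was also the gene model whose pattern over the 9 fish was most like that of Sa_27160.1.1, with a Pearson correlation of 0.97 between log2 normalized counts, the highest of 4240 gene models compared. Whether these models are parts of 1 gene or separate copies is not known here. That bears on this correlation, on the call of Sa_27161.1.1 at 2 BL/s and on the ratio of the pair given below. The next were cordon-bleu, an actin nucleator, and RNA-binding 33, with 0.97 and 0.96. For Sa_16736.1.1 the closest were DDB1- and CUL4-associated factor 11, a substrate receptor of a ubiquitin ligase, with 0.97, the transcription factor forkhead box K1 with 0.96, and glutamate receptor NMDA 2D-like with 0.96. All 6 models named here were also lowest in fish 3 at 1 BL/s, with 6.46 normalized counts of RNA-binding 33 against 32.9 to 78.3 in the other fish, so the correlations share that fish. Sa_16736.1.1 and Sa_27160.1.1 correlated with each other at 0.78, which placed Sa_16736.1.1 at rank 262 for Sa_27160.1.1. Their correlations with Sa_9398.9.1 were 0.09 and −0.02. These are descriptions over 9 fish.

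Set against Sa_27161.1.1 within the same fish, Sa_27160.1.1 was at 33.9%, 28.4% and 26.4% under minimal flow, then 29.7%, 19.8% and 14.3% among the 1 BL/s fish, and 19.8%, 18.7% and 20.7% among the 2 BL/s fish. Every fish at 2 BL/s was below every control, while at 1 BL/s fish 1 lay among the controls. Summed over the group, the ratio was 29.6% in the controls (exact 95% counting interval 23.4% to 37.1%), 24.7% at 1 BL/s (18.0% to 33.3%) and 19.6% at 2 BL/s (13.7% to 27.4%). The intervals of the groups overlap. The 14.3% of fish 3 at 1 BL/s is 1 count against 7, with a counting interval of 0.317% to 111%. The ratio was chosen after the values had been seen. Because Sa_27160.1.1 was listed for differences from the controls in these same counts, nothing is read from the lower ratio.

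Sa_9398.9.1 had the most counts of all sodium channel models. It had 228, 586 and 314 counts under minimal flow, then 459, 398 and 272 among the 1 BL/s fish, and 294, 447 and 553 among the 2 BL/s fish. The controls spanned the whole range, with fish 1 the lowest and fish 2 the highest of the 9 fish. Its log2 fold change was −0.00 at 1 BL/s (standard error 0.37, adjusted p = 0.999 by edgeR) and 0.11 at 2 BL/s (standard error 0.39, adjusted p = 0.996). With control fish 2 left out, these values were 0.58 and 0.70, both past an unadjusted p of 0.05 by edgeR.

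The alpha A-like model Sa_30555.2.1 had 114, 55 and 74 counts under minimal flow, then 92, 85 and 12 among the 1 BL/s fish, and 93, 116 and 70 among the 2 BL/s fish. Its groups overlapped in both comparisons. The log2 fold change was −0.40 at 1 BL/s (standard error 0.54, adjusted p = 0.972 by edgeR), and 0.04 without fish 3. Among the 2 BL/s fish it was 0.16 (standard error 0.32, adjusted p = 0.996 by edgeR).

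Together the 3 listed models made up 19.3%, 14.1% and 23.3% of all alpha subunit counts in the controls. The 1 BL/s fish had shares of 12.8%, 9.15% and 5.21%, and the 2 BL/s fish had 14.6%, 14.1% and 9.79%. All 3 fish at 1 BL/s were below the lowest control, although the exact 95% counting intervals of fish 1 at 1 BL/s (10.5% to 15.4%) and control fish 2 (11.8% to 16.5%) overlap. The share is taken within a fish and so does not depend on its depth, but it holds Sa_9398.9.1, whose counts were not low in fish 3 at 1 BL/s. Because the listed models were chosen for differences from the controls in these same counts, nothing is read from the lower share.

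**Figure D3:**
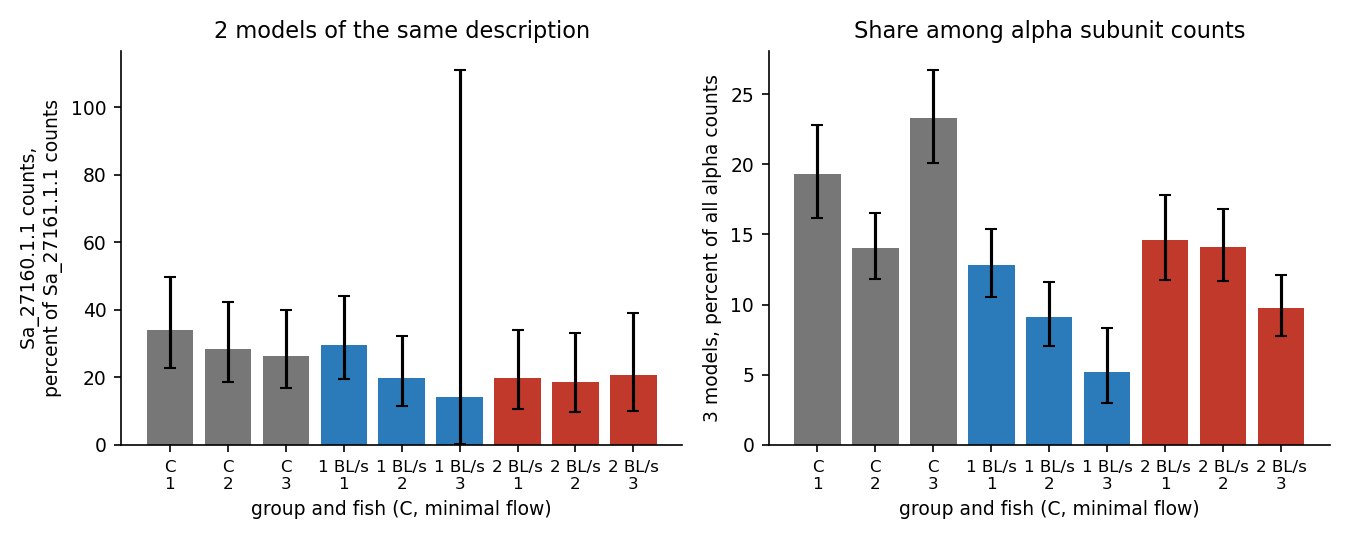
Counts of Sa_27160.1.1 as a percent of those of Sa_27161.1.1 (left) and counts of the 3 listed models as a percent of all alpha subunit counts (right) in each fish (C, minimal flow), with exact 95% counting intervals. The left ratio is 18.7% to 20.7% at 2 BL/s against 26.4% to 33.9% in the controls, and the right share is 5.21% to 12.8% at 1 BL/s against 14.1% to 23.3%. The listed models were chosen for differences from the controls in these same counts.

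Beta subunits were present as well. Sodium channel subunit beta-4 had 460, 383 and 307 counts under minimal flow, then 401, 273 and 117 among the 1 BL/s fish, and 367, 373 and 224 among the 2 BL/s fish. Its groups overlapped, and its log2 fold change was −0.58 at 1 BL/s (standard error 0.34, adjusted p = 0.966 by edgeR) and −0.32 at 2 BL/s (standard error 0.28, adjusted p = 0.996). Without fish 1 at 1 BL/s the difference at that speed was −0.86 and passed an unadjusted p of 0.05.

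Subunit beta-1 (Sa_27283.7.1) went the other way from Sa_27160.1.1 at the higher speed. It had 16, 15 and 15 counts under minimal flow, then 22, 12 and 5 among the 1 BL/s fish, and 28, 36 and 25 among the 2 BL/s fish, and every fish at 2 BL/s was above every other fish. In the 2 BL/s fish it rose 1.87-fold, with 15.7 ± 1.84 normalized counts under minimal flow and 29.3 ± 6.62 at this speed (SD over 3 fish each), a log2 fold change of 0.90 with a standard error of 0.33. The unadjusted p was 0.0215 and the adjusted p 0.996 by edgeR. It was no longer called by DESeq2 (0.90), nor when control fish 3 was left out (0.80) or fish 2 at 2 BL/s (0.70), the fish with the slow muscle and heart markers. At 1 BL/s the log2 fold change was −0.25 with a standard error of 0.46, and 0.04 without fish 3.

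A second beta-1 model, Sa_27051.4.3 described as beta-1-like, had 6, 11 and 11 counts under minimal flow, then 7, 6 and 6 among the 1 BL/s fish, and 12 in each of the 3 fish at 2 BL/s. It passed the low-count filter only in the comparisons that include the 2 BL/s fish, with a log2 fold change of 0.31 against the controls (standard error 0.42, adjusted p = 0.996 by edgeR) and 0.81 against 1 BL/s (standard error 0.45, adjusted p = 0.897). Subunit beta-2 had 9, 11 and 8 counts summed over the 3 groups, too few to test, and beta-3-like had 1 count in all.

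**Figure D4:**
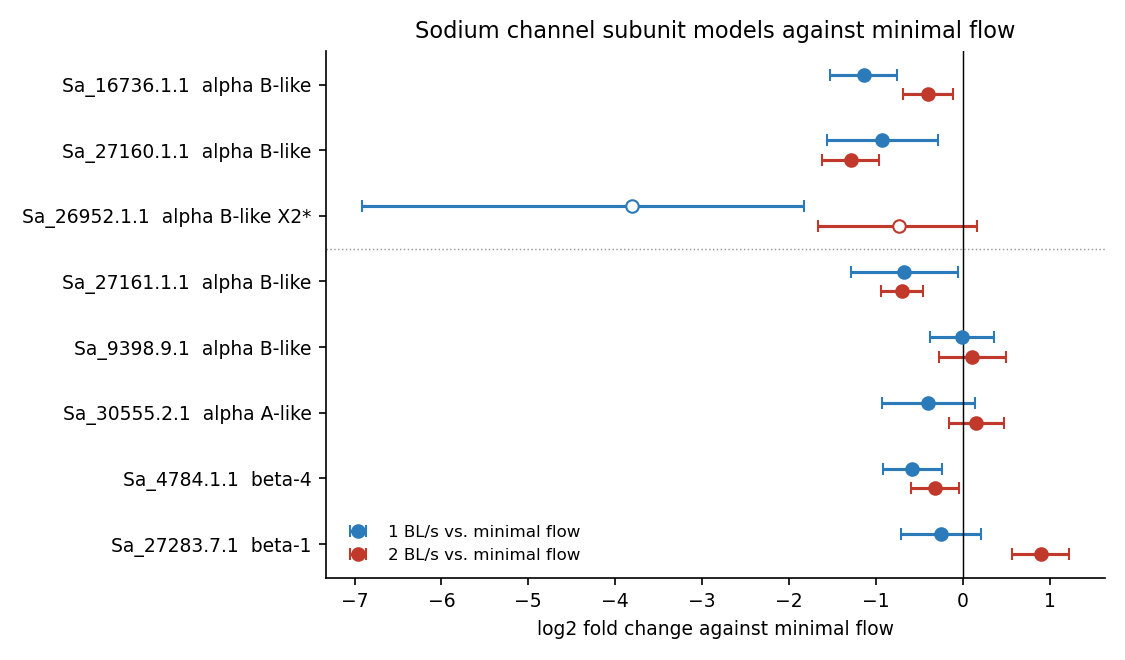
Log2 fold change against minimal flow (x axis) at 1 BL/s (blue) and 2 BL/s (red) for the 3 listed alpha B-like models (above the dotted line) and 5 other sodium channel subunit models. Filled points are edgeR estimates with standard errors and open points (*, Sa_26952.1.1) ratios of summed counts with exact 95% counting intervals, where the listed models lie between −3.81 and −0.40, Sa_9398.9.1 at −0.00 and 0.11, and beta-1 at −0.25 and 0.90.

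In the family without the 3 listed models, none of 5 gene models tested at 1 BL/s passed an unadjusted p of 0.05 by edgeR or DESeq2, against 4.02% of all 3902 tested (1.97% higher and 2.05% lower). The 3 alpha models had a median log2 fold change of −0.40 and the 2 beta models one of −0.41, beside −0.01 over all gene models. The median was −0.25 for the long transcripts and 0.17 for the short ones. Without fish 3 at 1 BL/s, Sa_27161.1.1 was at −0.17, Sa_30555.2.1 at 0.04 and Sa_9398.9.1 at 0.06. Beta-4 was then at −0.31 and beta-1 at 0.04. In the 2 BL/s fish, 2 of 6 passed by edgeR, 1 lower (Sa_27161.1.1) and 1 higher (Sa_27283.7.1), against 4.46% of 3947 (1.75% higher and 2.71% lower). Sa_27161.1.1 may be part of the same gene as the listed Sa_27160.1.1, so its call may not be separate from the list. With DESeq2, 1 of the 6 passed. Between the flows, 1 of 6 passed, against 4.24% of 3963 (1.97% higher and 2.27% lower), and this was beta-1 again, higher at 2 BL/s. No sodium channel model passed an adjusted p of 0.05 by edgeR in any comparison.

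The channels, pumps and receptors that work beside the sodium channel in the muscle membrane were tested in the same way. Of 36 gene models at 1 BL/s, 0 passed an unadjusted p of 0.05 by edgeR and 0 by DESeq2, against 4.02% of all gene models by edgeR, with a median log2 fold change of −0.21. They comprised 8 partners of the sodium channel such as ankyrins, spectrins and syntrophins, 5 subunits of the sodium pump, 11 potassium channels, 1 chloride channel, 6 subunits of the t-tubule calcium channel and 5 models of the acetylcholine receptor and endplate.

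Of 37 at 2 BL/s, 2 fell, none rose and 35 did not pass, with a median of −0.15 and none past an adjusted p of 0.05. Among all gene models 4.46% passed (2.71% lower), so that the count is near the background and is no result about these lists. One was ankyrin-2, an anchor of membrane channels and pumps, which had 247 ± 26.2 normalized counts under minimal flow and 164 ± 14.5 at 2 BL/s (SD over 3 fish each), a log2 fold change of −0.59 with a standard error of 0.20 (adjusted p = 0.996 by edgeR). Leaving out control fish 3 (−0.54) or fitting all 9 fish together (−0.59) ended the call. Ankyrin-2 had 209, 233 and 289 counts under minimal flow, then 212, 175 and 62 among the 1 BL/s fish, and 156, 176 and 169 among the 2 BL/s fish. The normalized values of both swimming groups were below all controls.

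The other was the alpha-2 delta-1-like subunit of the voltage-dependent calcium channel, an auxiliary subunit of the channel that couples the action potential to calcium release. Its normalized counts were 1550, 1452 and 1527 under minimal flow and 1086, 884 and 1264 among the 2 BL/s fish, which did not overlap. It was at 0.716 of the controls, with a log2 fold change of −0.48 and a standard error of 0.18 (adjusted p = 0.996 by edgeR). That call did not hold when control fish 3 (−0.47) or fish 2 of the 2 BL/s group (−0.36) was left out.

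Between the flows, 1 of 35 such models rose and 1 fell, with 33 that did not pass and none past an adjusted p of 0.05 by edgeR. This count too is near the background of 4.24% (1.97% higher and 2.27% lower). The acetylcholine receptor subunit alpha model Sa_18191.4.1, part of the receptor whose current depolarizes the endplate, had 158.4, 126 and 145 normalized counts among the 1 BL/s fish and 287, 225 and 163 among the 2 BL/s fish. It rose 1.59-fold (0.67 on the log2 scale with a standard error of 0.26, adjusted p = 0.897 by edgeR). The voltage-gated potassium channel subunit beta-1-like, which binds to potassium channel pores, had 119, 53.9 and 96.9 against 48.1, 18.9 and 59.2. It fell to 0.473 (−1.08, standard error 0.43, adjusted p = 0.897), with groups that overlapped. Both calls were lost without fish 2 at 2 BL/s (0.66 and −0.74) or fish 1 of that group (0.45 and −1.20). The first was also lost without fish 2 at 1 BL/s (0.57), and the second without fish 1 (−0.83) or fish 3 (−1.04) of that group.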

How the data were processed

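Stranded mRNA libraries were sequenced as read pairs. TopHat2 2.0.13 was the authors' aligner, SAMtools 1.2 took out secondary alignments, HTSeq 0.6.1p1 gave the counts and DESeq the authors' own tests, as named by the study's methods and the submitters' processing notes. The study's methods link the genome assembly at NCBI without a build name, and the strand setting of counting was not given in the sources used here. The deposited counts are the authors' raw fragment counts per fish, in 3 tables, 1 for each pair of groups, with 0 differing values between tables. The tables also hold the authors' means, fold changes and p-values, which were not used, and 2 columns without a sample label, also not used.

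Counts were tested here with edgeR 4.0.16 in R 4.3.3 (quasi-likelihood test, TMM, filterByExpr) on the 6 fish of each comparison. Calls are at an unadjusted p of 0.05, since the study applied no correction, and also at a p of 0.05 adjusted by Benjamini-Hochberg. Standard errors are the log2 fold change divided by the square root of F. Where fish of 1 comparison are given by mean, values are scaled over its 6 fish. Alternatives were DESeq2 1.42.0, its size factors in edgeR, no filter, all 9 fish in one fit, a replicate block, leaving out each fish, and scaling to long transcripts. The test was checked on simulated data. Other steps used Python 3.11.15 with scipy 1.17.1.

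Named were the 3 listed models, every sodium channel subunit model with at least 10 counts over the 9 fish, models of the excitability lists past an unadjusted p of 0.05, and the 3 models most correlated with each listed model kept by the filter. Members and lists were chosen with earlier results of these data known.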

Additional observations from a re-analysis of the deposited data

Results flagged for a closer look

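In the direct comparison of 2 with 1 BL/s, 3 gene models passed an unadjusted p of 0.05 by edgeR, with no adjusted p below 0.05. They were 1 of 6 sodium channel models outside the list and 2 of 35 excitability models, against 4.24% of all gene models. Sodium channel subunit beta-1 (Sa_27283.7.1) had a log2 fold change of 1.15, higher at 2 BL/s in 3 of 3 fish, which no longer passed without fish 2 (1.10) or fish 3 (0.85) at 1 BL/s or without fish 2 at 2 BL/s (0.95). The acetylcholine receptor subunit alpha model Sa_18191.4.1 had a log2 fold change of 0.67, with every fish at 2 BL/s above every fish at 1 BL/s. The voltage-gated potassium channel subunit beta-1-like (Sa_28211.5.1) had one of −1.08, with groups that overlapped. The calls of these last models were also lost when certain single fish were left out, as given above. With 3 fish per group no single fish was tested for standing apart from its group.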

How the results depend on the processing

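The log2 ratios of the 3 listed models to the controls stayed below 0 in all settings that gave a ratio. With any one fish left out they lay between −1.51 and −0.84 for Sa_16736.1.1, −3.93 and −3.22 for Sa_26952.1.1 and −1.55 and −0.43 for Sa_27160.1.1 at 1 BL/s, and between −0.62 and −0.26, −1.18 and −0.23, and −1.45 and −1.18 at 2 BL/s. The value of −1.55 left out fish 1 at 1 BL/s, the value of −0.43 left out fish 3 of that group, and the value of −3.22 left out its fish 2. For Sa_26952.1.1 no count remained when fish 1 of that group was left out, and no ratio is given. With the summed long transcripts as library size its log2 ratio was −3.39. Because the models were chosen for differences from the controls in these same counts, nothing is read from the sign of these ratios. Between the flows the log2 ratios with a fish left out were 0.43 to 1.09 for Sa_16736.1.1, 2.47 to 3.58 for Sa_26952.1.1 and −0.87 to 0.24 for Sa_27160.1.1.

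Without the low-count filter, 527, 565 and 633 gene models passed the unadjusted threshold at 1 BL/s, at 2 BL/s and between the flows. With the filter 157, 176 and 168 passed. The models tested numbered 13211, 13487 and 13407 without the filter, and 3902, 3947 and 3963 with it. By edgeR the adjusted threshold was passed by 47, 92 and 72 models without the filter and by 0 with it. By DESeq2 with the filter it was passed by 0, 1 and 2 models. At 1 BL/s, removing the filter took the unadjusted p by edgeR from 0.303 to 0.0396 for Sa_27161.1.1. For beta-4 it went from 0.122 to 0.0388. Their log2 fold changes moved from −0.67 to −0.68 and from −0.58 to −0.59. With the filter and a fish left out, the counts past the unadjusted threshold were 125 to 229, 117 (without fish 3 at 2 BL/s) to 273 (without fish 1 at 2 BL/s) and 120 to 299 (without fish 1 at 1 BL/s). Of sodium channel models outside the list, 2 of 12 passed at 1 BL/s without the filter, and 1 at 2 BL/s with DESeq2 or with all 9 fish in one fit. With a fish left out, 0 to 1, 1 to 3 and 0 to 1 of them passed. Of the excitability models, 4 of 136, 5 of 148 and 6 of 141 passed without the filter. With all 9 fish in one fit, 3 and 1 of them passed at 1 and 2 BL/s. With a fish left out, 1 to 4, 0 to 3 and 0 to 4 of them passed. The cause of these shifts was not tested.

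The labels do not say that same-numbered fish belong together, and the main tests did not pair them. Deviations of same-numbered fish correlated between −0.05 and 0.19. With the replicate number as a block, 161, 183 and 178 gene models passed, 1 sodium channel model (beta-4) and 1 excitability model at 1 BL/s, and 4 excitability models between the flows. Some single models turned in direction, none of them past the threshold except Sa_9398.9.1 without control fish 2. Sa_9398.9.1 against the controls at 1 BL/s was 0.14 with the block, 0.0028 with all 9 fish in one fit and −0.25 to 0.58 with a fish left out. With a fish left out it was −0.16 to 0.70 for 2 BL/s and −0.090 to 0.33 between the flows. Sa_30555.2.1 ranged from −0.73 to 0.043 and from −0.070 to 0.50 against the controls, Sa_27283.7.1 from −0.70 to 0.041 at 1 BL/s, and beta-4 from −0.018 to 0.52 between the flows. Sa_27161.1.1 between the flows was 0.34 with the block and −0.54 to 0.35 with a fish left out. The length of RefSeq proteins as a measure of long transcripts was not run, since the identifiers could not be matched. With a prior count of 0.5 the difference of long and short transcripts in fish 3 at 1 BL/s was −1.34.

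Depth limits Sa_26952.1.1, where 3 counts are 0.570 to 0.820 CPM, and 3 fish per group limit all comparisons.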
